A study of Rattus norvegicus with 8 samples.

Results

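The receptors for neuropeptide Y (NPY) and for somatostatin were compared between the dentate gyrus of oil-treated and estradiol-treated female rats that had undergone status epilepticus (SE). The genes were Npy1r, Npy2r and Npy5r for NPY and Sstr1, Sstr2, Sstr3, Sstr4 and Sstr5 for somatostatin. A spot belonged to the group when it was no control spot and the array design gave it one of these symbols. This rule found 8 of 35199 gene names and 9 of 43379 spots, Npy1r with 2 spots and each other gene with 1.

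All 8 rats were adult female Sprague-Dawley animals bought at 150 to 200 g and ovariectomized (OVX) 1 week before hormone treatment, and all went through SE. COS, for castrated, oil and seizures, stands for the 4 oil rats, and CES for the 4 rats given estradiol (E2), in 4 doses of 2 μg spaced by 24 h. The sample records place 2 of these doses before SE and 2 after it, and give kainic acid, an agonist of glutamate receptors, at 16 mg/kg, with pentobarbital ending SE after 5 h. The study's methods give another kainic acid dose, another drug to end SE and all E2 doses before SE. On tissue collection they differ among themselves. Their account of the arrays places it within hours of seizure onset, and their account of the animals a day after SE. The schedule of these rats and the time of collection are therefore not settled. Rats without SE were not analysed here, so no value below separates the effect of E2 from its effect on the response to SE. Each rat was 1 channel of a 2-colour Agilent array, labelled with Cy3 (replicates 1 and 3) or Cy5 (replicates 2 and 4), and each of 4 arrays on 1 slide held a pair of rats of the same group.

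NPY and somatostatin are peptides that interneurons of the dentate hilus often make together. Their receptors are G protein coupled receptors of the inhibitory Gi/o class, which lower cyclic AMP, open inwardly rectifying potassium channels and close N-type and P/Q-type calcium channels. Y1, the product of Npy1r, is mostly postsynaptic in the dentate gyrus. Y2, the product of Npy2r, sits on axon terminals, where it limits glutamate and peptide release, and together with Y5 it has been linked to the anticonvulsant action of NPY. The somatostatin receptors share the same signalling, with sst2, the product of Sstr2, a main type in the hippocampus.

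The probes are the sequences against which each rat's labelled RNA was read, and they are shown to make plain which stretch of each transcript was measured. All are 60 bases long and hold between 35% and 55% G and C. Those of Npy1r at transcript position 872, Npy2r and Sstr4, the nearest to the start of their transcripts, are printed whole, 5′ to 3′, and the other 6 by their first 30 bases.
Npy1r, position 872: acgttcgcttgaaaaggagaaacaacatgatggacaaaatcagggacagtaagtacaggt
Npy1r, position 2187: tgagagcatttctaactcatactgcataga
Npy2r, position 1054: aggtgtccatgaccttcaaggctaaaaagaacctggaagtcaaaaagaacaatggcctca
Npy5r, position 2333: agtagatagctgatttatgttgtacctatg
Sstr1, position 3498: taaccgataagaagagtgaactttataaac
Sstr2, position 1602: ttgagtctggcttgtccgaaagtatacccc
Sstr3, position 3727: ggttcctctgagaaggagctgggtcaggaa
Sstr4, position 1148: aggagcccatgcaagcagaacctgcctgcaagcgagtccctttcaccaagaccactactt
Sstr5, position 1306: tttgctgagatgcattcacccccaggccta
The files place these probes on the rn4 build. The probes of Npy1r lie on the minus strand at chr16:24748869-24748928 and chr16:24747554-24747613, and that of Npy5r lies on the plus strand at chr16:24773052-24773111. Npy1r and Npy5r are neighbours, with 0 genes of the RefSeq table starting between them. The probe of Npy2r lies at chr2:150556016-150556075 on the plus strand. Those of the somatostatin receptors lie at chr6:78806862-78806921 (Sstr1, plus), chr10:103253946-103254005 (Sstr2, plus), chr7:116495844-116495903 (Sstr3, minus), chr3:137151569-137151628 (Sstr4, plus) and chr10:14740997-14741056 (Sstr5, minus).

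Detection was read first, from the mark that the scanner software sets when a spot stands well above its background. For 7 of the 9 spots, which cover every receptor except Sstr5, the mark was set in all 8 rats. The Npy1r probe at position 872 was marked in 0 of 4 COS rats and in 2 of 4 CES rats, replicates 2 and 4, both labelled with Cy5. Sstr5 was marked in the 4 Cy5 rats, 2 of each group, and in 0 of the 4 Cy3 rats, so its mark went with the dye and not with the group.

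Every receptor spot passed the study's own rule for a valid spot, a foreground of at least 2 times the local background, in all 8 rats. Foreground over background ran from 2.31 to 6.27 for the Npy1r probe at position 872 and from 3.26 to 4.75 for Sstr5. It ran from 6.1 to 15.7 for Sstr4, from 6.77 to 20.4 for Npy5r and from 6.65 to 39.3 for Npy2r. The Npy1r probe at position 2187 gave 8.68 to 39.7, Sstr2 14.8 to 58.9 and Sstr1 20.2 to 115. Sstr3 stood farthest above its background, with 63.3 to 229. No receptor spot was saturated or marked as an outlier in any rat. These ratios say how firmly each probe was read and do not rank the receptors, since a probe's signal also depends on its own binding.

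**Figure D1:**
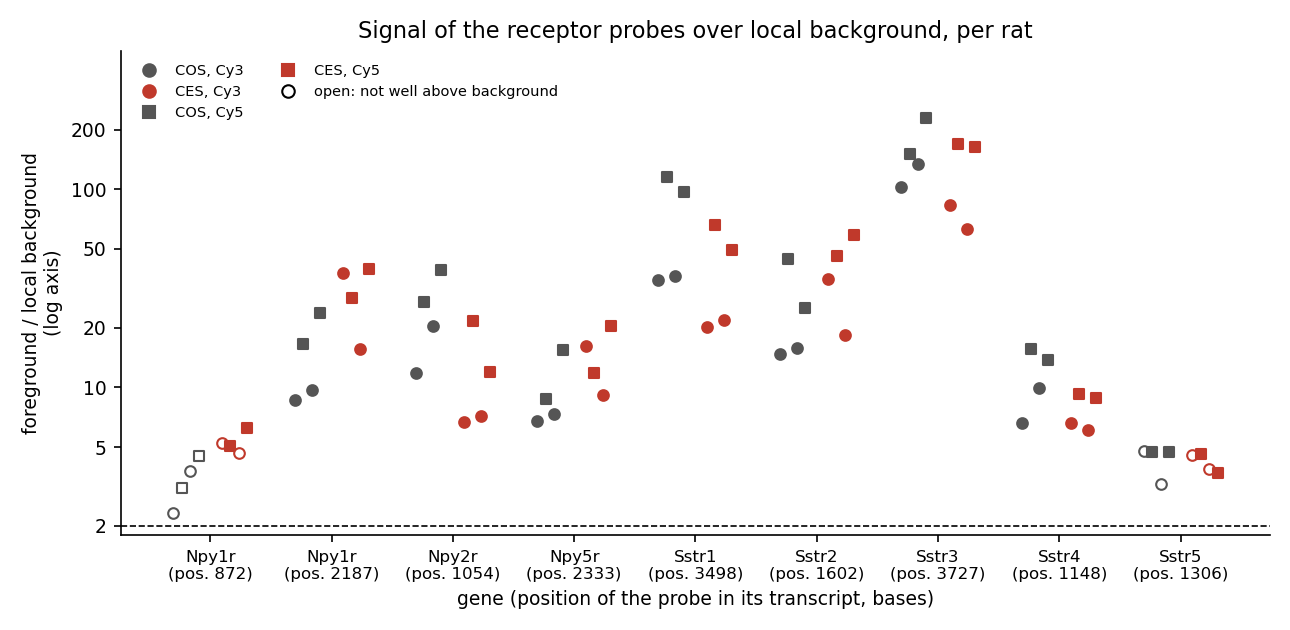
Foreground divided by local background (log axis) of the 9 receptor probes, with 1 point per rat, circles for Cy3, squares for Cy5 and open symbols where the spot was not well above background. The dashed line marks the ratio of 2 that made a spot valid; the Npy1r probe at position 872 and the Sstr5 probe lie nearest to it.

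The level of a gene is given as log2 of its background-subtracted signal over the median valid spot of the same rat, so 0 marks that median. COS rats had 32381 to 38553 valid spots and CES rats 30690 to 35352. This spread moves the scale, since a rat with more valid spots has more dim ones among them. Over the 21332 genes quantified in all rats the median CES minus COS difference was -0.25. When each rat was divided instead by its median over the spots valid in all 8 rats, that median was 0.15. Each receptor result is therefore also given under the second scaling, and differences measured from the median gene, which are the same under both, stand beside them. Of the 7276 genes called over the whole array, CES replicate 2 was the CES rat nearest to the COS mean for 3905 (53.7%), and it was so for 4 of the 8 receptors. Without COS replicate 3 the genes called over the array fell from 1238 higher and 6038 lower to 248 and 885.

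Under the first scaling, limma called 3 of the 8 receptors at an adjusted p under 0.05, where 34.1% of all genes were called. Npy1r was higher in CES, in a direction called for 5.80% of all genes. Npy2r and Sstr1 were lower, a direction called for 28.3% of all genes, and these were also the 2 receptors whose groups did not overlap, against 21.4% of all genes. Under the second scaling 2 of 8 were called higher, Npy1r and Sstr2, against 15.7% of all genes, and 0 of 8 were called lower, against 8.05%. Groups did not overlap for these 2 receptors, against 29.7% of all genes. The share of receptors called in either direction was close to that of all genes under each scaling, and Npy1r was the receptor called under both.

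**Figure D2:**
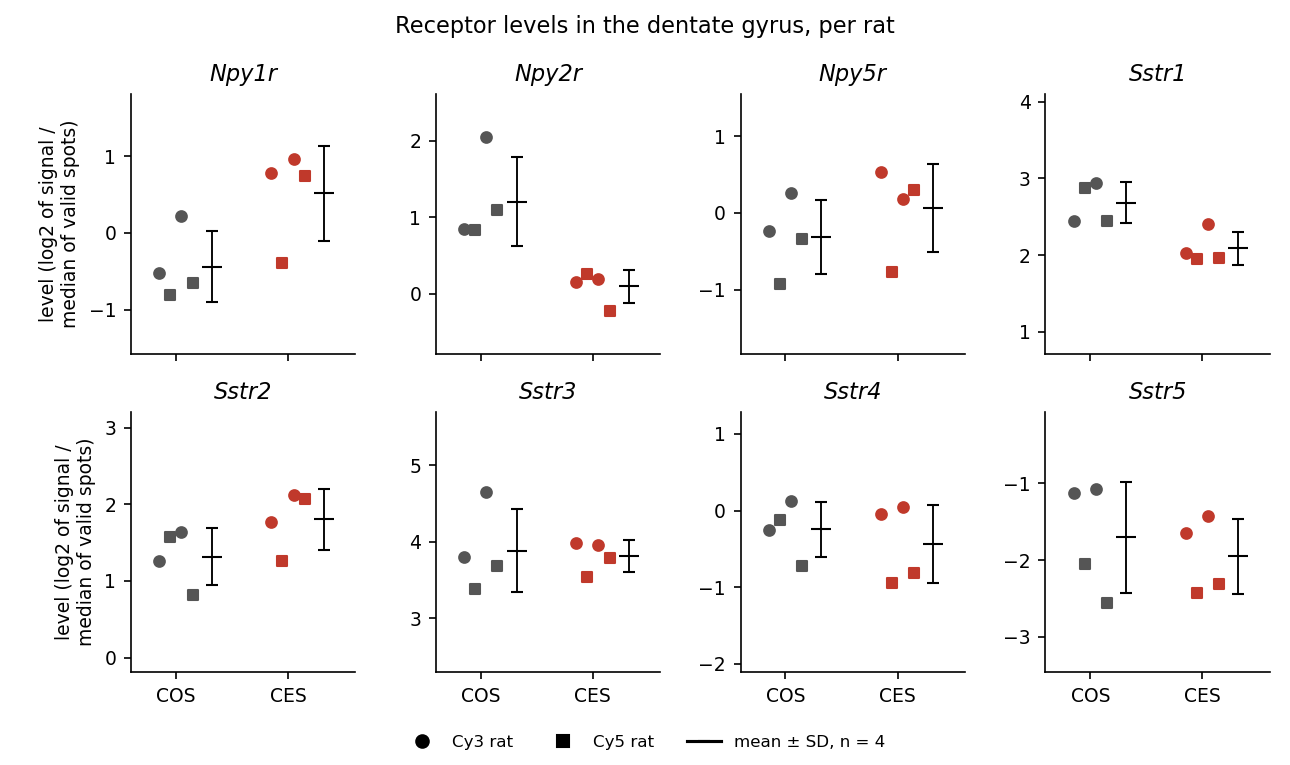
Level of each receptor per rat (log2 of the signal over the median of the rat's valid spots) in COS and CES, with circles for Cy3 rats, squares for Cy5 rats, and the mean ± SD of 4 rats. Each panel spans the same range of log2 units; the groups are apart for Npy2r and Sstr1, and CES replicate 2 lies among the COS rats for Npy1r.

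Npy1r levels in the COS rats were -0.52, -0.81, 0.23 and -0.65 in replicates 1 to 4, and in the CES rats 0.78, -0.40, 0.96 and 0.74. Of the CES rats, 3 lay above every COS rat, while CES replicate 2 lay below COS replicate 3. The COS mean was -0.44 ± 0.46 and the CES mean 0.52 ± 0.62 (SD, n = 4 each). The difference of 0.96 ± 0.26 (SE), or 1.95-fold, had a limma adjusted p of 0.0207, with a 95% interval from 0.38 to 1.55. Measured from the median gene Npy1r was 1.21 higher in CES. With the second scaling the difference was 1.36 ± 0.34 (SE) with a limma adjusted p of 0.0291, and the groups no longer overlapped, with CES from -1.04 to 0.29 and COS from -1.83 to -1.18.

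The pair of Npy1r probes pointed the same way. The probe at position 2187 gave a difference of 1.01 ± 0.26 (SE), with a limma adjusted p of 0.0166 over all probes. Its levels were 0.23, -0.01, 0.85 and 0.14 in COS and 1.54, 0.37, 1.74 and 1.57 in CES. The probe at position 872 was well above background in no COS rat and in neither Cy3 rat of CES, so the values of these rats are only bounds. It gave 0.74 ± 0.28 (SE) and a limma adjusted p of 0.0673, a difference that is a bound in neither direction. Within the Cy3 rats the gene's difference was 1.02 and within the Cy5 rats 0.90, with limma adjusted p of 0.0598 and 0.395 for 2 against 2 rats.

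The Npy1r call depended on which rats were included. Under the first scaling it was lost when COS replicate 1, 2, 3 or 4 or CES replicate 1 was left out, with limma adjusted p from 0.0519 to 0.0726 and differences from 0.80 to 1.08. It was kept without CES replicate 2, 3 or 4, and without CES replicate 2 the difference was 1.20, with a limma adjusted p of 0.00205. The difference stayed above 0.70 in every one of these fits. Under the second scaling the call was lost without COS replicate 1, 2 or 4 or CES replicate 1, with limma adjusted p from 0.0529 to 0.189. It was kept there without any of the other rats, at 0.0493 without COS replicate 3.

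Npy2r showed the opposite. Its levels in COS were 0.84, 0.83, 2.05 and 1.09, and in CES 0.16, 0.26, 0.19 and -0.22. Every CES rat lay below every COS rat, and COS replicate 3 was high among the COS rats. The COS mean was 1.20 ± 0.58 and the CES mean 0.10 ± 0.22 (SD, n = 4 each). The difference was -1.11 ± 0.26 (SE), 2.15-fold lower in CES, with a limma adjusted p of 0.0116 and a 95% interval from -1.69 to -0.53.

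Measured from the median gene the difference of Npy2r was -0.85. Its difference with the second scaling was -0.71 ± 0.26 (SE), with a limma adjusted p of 0.0788, so the direction stood and the call did not. The groups then overlapped, since COS replicate 1 at -0.43 lay below CES replicate 2 at -0.38. Without COS replicate 3 the difference was -0.85 with a limma adjusted p of 0.0545 under the first scaling and -0.50 with 0.123 under the second. Without CES replicate 1 the first scaling gave -1.05 and 0.0546, and the call was kept without any of the other 6 rats.

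Npy5r, whose product Y5 binds NPY with high affinity and is best known for its part in feeding, was not called. It read -0.24, -0.92, 0.26 and -0.34 in COS and 0.54, -0.77, 0.19 and 0.30 in CES. The groups overlapped, and replicate 2 was the lowest rat of each. The difference was 0.38 ± 0.26 (SE) with a limma adjusted p of 0.286 and a 95% interval from -0.20 to 0.95. The second scaling gave 0.77 ± 0.38 (SE), with a limma adjusted p of 0.157, and 1.07 with 0.0395 when CES replicate 2 was left out.

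Among the receptors, the rat-to-rat pattern of Npy5r was nearer to that of its genomic neighbour Npy1r than to that of Npy2r. The root mean square difference of levels centred on each gene's mean over the 8 rats was 0.347 between Npy1r and Npy5r and 0.881 between Npy2r and Npy5r. Between Npy5r and Sstr3, which lies on another chromosome, it was 0.348, so nearness to Npy5r was not particular to its neighbour. The root mean square difference between Npy1r and Npy2r, at 1.13, was the greatest of all pairs of receptors. These values contain the group differences already given, share the rats, the dyes and the scaling, and carry no test.

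**Figure D3:**
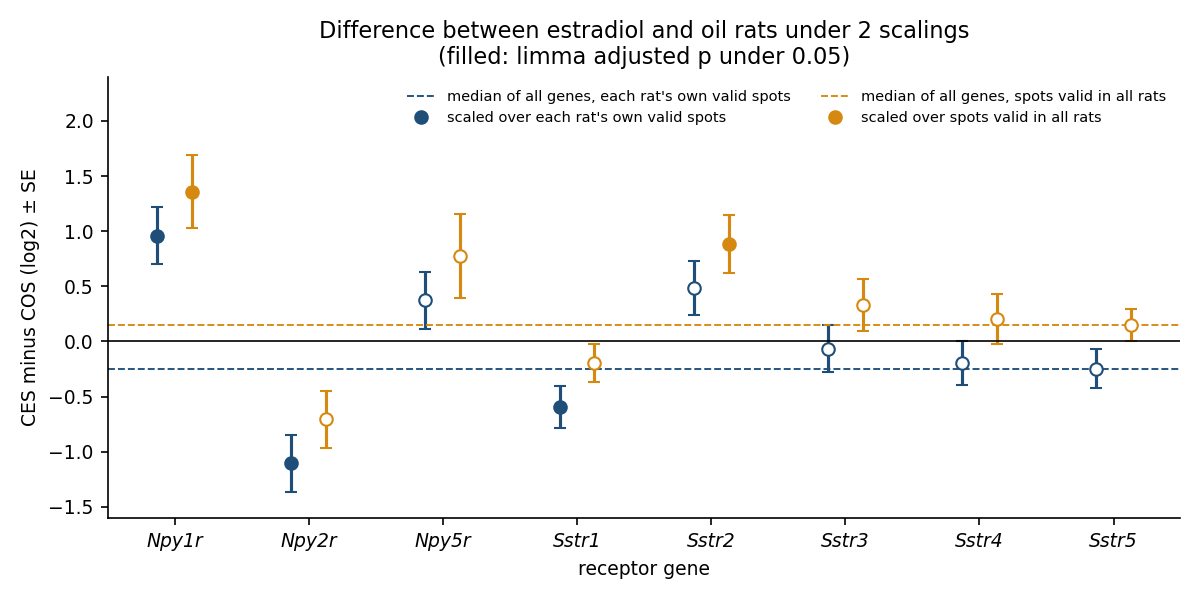
CES minus COS difference ± SE (log2) of the 8 receptors under 2 scalings, over each rat's own valid spots (blue) and over the spots valid in all rats (orange), filled where the limma adjusted p was under 0.05. Dashed lines show the median of all genes, -0.25 and 0.15; Npy1r lies above both and Npy2r below both, while Npy2r, Sstr1 and Sstr2 change their call with the scaling.

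Of the somatostatin receptors, Sstr1 was lower in CES under the first scaling. Its levels were 2.45, 2.88, 2.95 and 2.45 in COS and 2.02, 1.95, 2.41 and 1.96 in CES. All CES rats lay below all COS rats; the highest CES rat, replicate 3, came close to the lowest COS rats. The difference was -0.60 ± 0.19 (SE), 1.51-fold lower in CES, with a limma adjusted p of 0.0359 and a 95% interval from -1.02 to -0.17.

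Part of the Sstr1 difference was shared by the median gene. Measured from it the difference was -0.34, and under the second scaling it was -0.20 ± 0.17 (SE) with a limma adjusted p of 0.415 and overlapping groups. Under the first scaling the call was lost without COS replicate 2, 3 or 4 or CES replicate 1, with differences from -0.67 to -0.49 and limma adjusted p from 0.0655 to 0.17. The direction was kept in all of these fits.

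Sstr2 behaved the other way round. Its levels were 1.26, 1.57, 1.64 and 0.81 in COS and 1.76, 1.26, 2.12 and 2.07 in CES. CES replicate 2 lay among the COS rats and the other 3 CES rats above all of them. The difference of 0.48 ± 0.24 (SE) had a limma adjusted p of 0.146 and a 95% interval from -0.05 to 1.02.

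Scaled the second way, Sstr2 read -0.02, 0.55, 0.23 and 0.09 in COS and 1.00, 0.61, 1.15 and 1.63 in CES. All CES rats then lay above all COS rats, CES replicate 2 only just. The difference of 0.88 ± 0.27 (SE) had a limma adjusted p of 0.0461, and Sstr2 was 0.74 higher measured from the median gene. Under this scaling the call was lost when any rat except CES replicate 2 was left out, with differences from 0.71 to 1.00 and limma adjusted p from 0.0519 to 0.269.

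**Figure D4:**
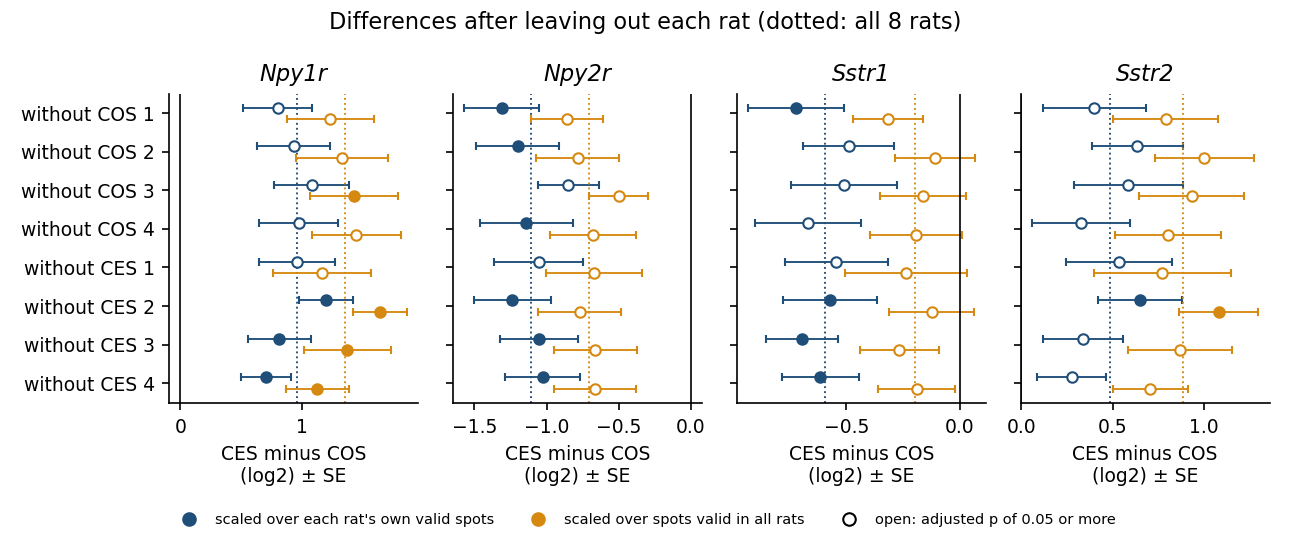
CES minus COS difference ± SE (log2) of Npy1r, Npy2r, Sstr1 and Sstr2 after leaving out each rat, under the scaling over each rat's own valid spots (blue) and over the spots valid in all rats (orange), filled where the limma adjusted p was under 0.05. Dotted lines show the values from all 8 rats; directions hold throughout, while calls come and go with single rats.

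Sstr3, whose product is concentrated in neuronal primary cilia, was the most firmly read probe and was not called. Its levels were 3.81, 3.39, 4.65 and 3.69 in COS and 3.98, 3.54, 3.95 and 3.79 in CES. The groups overlapped, and COS replicate 3 stood highest. The difference was -0.07 ± 0.21 (SE) with a limma adjusted p of 0.831, a 95% interval from -0.54 to 0.41, and a turned sign, 0.33, under the second scaling.

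Sstr4, a receptor of forebrain neurons, was not called either. It read -0.26, -0.12, 0.12 and -0.72 in COS and -0.04, -0.94, 0.05 and -0.82 in CES, with overlapping groups. The difference of -0.20 ± 0.20 (SE) had a limma adjusted p of 0.478 and a 95% interval from -0.64 to 0.25, and under the second scaling it was 0.20. The intervals of Sstr3 and Sstr4 leave room for differences of either sign, so neither gene was shown to be alike in the groups.

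Under the first scaling all 8 receptors read lower on average in the Cy5 than in the Cy3 rats of both groups, and Sstr5 by the most in COS. The median gene did so too, at 1.17 and 1.30 in Cy3 and 0.88 and 0.61 in Cy5 rats of COS. In CES it read 0.67 and 0.89 in Cy3 and 0.54 and 0.36 in Cy5 rats. The second scaling did not keep this order for every receptor. There Sstr1 in COS read 1.17 and 1.54 in Cy3 and 1.86 and 1.73 in Cy5 rats. For Sstr5 the Cy3 rats read -1.12 and -1.08 in COS and -1.65 and -1.42 in CES, and the Cy5 rats -2.06 and -2.56 in COS and -2.43 and -2.31 in CES. All Cy5 rats lay below all Cy3 rats for this gene, with a difference of -1.20 in the COS means and -0.83 in the CES means. In COS the differences of the other 7 between dyes ran from -0.69 to -0.033. With the dye in the fit the Sstr5 difference between groups was -0.25 ± 0.18 (SE), with a limma adjusted p of 0.306, and 0.15 under the second scaling. Since 4 of the 8 rats did not show the probe well above background, this is a value near the floor of the array.

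Measured from the median gene, 6 of the 8 receptors kept 1 direction in 29 alternative settings, which include leaving out each rat under both scalings. Another 5 settings, the second scaling among them, cannot move this value and were not counted. Changes of spot filter, probe choice or gene names were counted, but could move a receptor with 1 spot only through the median gene. The number of settings is therefore not a number of independent checks. Npy1r ranged from 0.74 to 1.47, Npy2r from -1.03 to -0.65 and Npy5r from 0.34 to 0.89. Sstr1 ranged from -0.55 to -0.20, Sstr2 from 0.55 to 0.92 and Sstr3 from 0.02 to 0.33. Sstr4 lay above the median in 24 settings and below it in 5, and Sstr5, which 1 setting left out, in 18 and 10.

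The 2 gene names whose pattern over the 8 rats came nearest to each receptor, among 21332, were found by the same root mean square difference of centred levels, for all receptors except Sstr5, which was not well above background in every rat. For Npy1r they were an unnamed transcript (0.112) and Sema6b (0.119), and for Npy2r RGD1305464 (0.168) and Olfml2b (0.173). Both names nearest to Npy5r (0.127 and 0.157) were sequences without a gene symbol. Sstr1 came nearest to Sntg2 (0.081) and Gramd1b (0.0879), and Sstr2 to Camkk1 (0.111) and Slc24a3 (0.114). Sstr3 came nearest to LOC682469 (0.0899) and Plk1s1 (0.103), and Sstr4 to Mzf1 (0.0726) and Kcnma1 (0.0876). With 8 rats and so many names such nearness is common, and it is given as a description.

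Of the 5 ligand genes listed 3 were quantified, and of these Npy and Sst were called lower in CES, as were 28.3% of all genes. Npy read 7.28, 7.78, 7.60 and 7.65 in COS and 4.90, 7.20, 5.59 and 5.27 in CES. All CES rats lay below all COS rats, CES replicate 2 only just. Groups did not overlap for 21.4% of all genes. The difference was -1.84 ± 0.38 (SE) with a limma adjusted p of 0.0073, and -1.44 with 0.0486 under the second scaling.

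Sst, which encodes somatostatin, read 7.12, 8.15, 7.39 and 7.39 in COS and 5.35, 6.89, 6.05 and 5.54 in CES. The groups were again apart, with CES replicate 2 nearest to COS. The difference was -1.56 ± 0.31 (SE) with a limma adjusted p of 0.0065, and -1.16 with 0.04 under the second scaling. Npy2r thus differed in the direction of the ligand messages and Npy1r against it. Cort, for the related peptide cortistatin, differed by -0.30 with a limma adjusted p of 0.387. Pyy was well above background in 5 rats and Ppy, like the Y4 receptor gene Npy4r, in 0 rats, and none of these was quantified.

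The list of ligands, processing enzymes and signalling partners held 31 genes, of which 29 were found on the array and 25 were quantified. Of these, 4 were called higher in CES and 6 lower, against 5.80% and 28.3% of all genes. Their median difference was -0.07 and that of all genes -0.25. With the second scaling 8 were higher and 2, Npy and Sst, were lower, where 15.7% and 8.05% of all genes were.

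Among the channels that Gi/o receptors act on, 3 of 6 were higher and 0 lower, against 5.80% and 28.3% of all genes. These were Kcnj6, for the potassium channel GIRK2, by 1.24 (limma adjusted p 0.00577), Cacna1b, for the N-type calcium channel, by 1.08 (0.00518), and Cacna1a, for the P/Q-type channel, by 0.83 (0.0092). Kcnj6 read 1.89, 1.33, 2.25 and 1.68 in COS and 3.34, 2.11, 3.55 and 3.12 in CES, where CES replicate 2 fell below COS replicate 3. All 3 were also called under the second scaling, by 1.64, 1.48 and 1.22, and so was Kcnj3, for GIRK1, by 0.63 (limma adjusted p 0.0394). Grk3, a kinase that desensitises receptors, was higher by 0.78 (limma adjusted p 0.0166), but its probe was well above background in only 2 rats.

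Of 4 G protein genes quantified, Gnai2 (-0.78, limma adjusted p 0.0115) and Gnai3 (-0.86, 0.00976) were lower, while Gnai1 and Gnao1, the neuronal Go, were not called. Of 5 genes for processing and breakdown quantified, 2 were lower. Beside both of these counts, 28.3% of all genes were called lower. Pcsk1, a convertase that cleaves peptide precursors, differed by -1.44 (limma adjusted p 0.0124). Dpp4, which trims NPY to a form that prefers Y2 and Y5, differed by -1.43 (0.00719) and was well above background in 4 rats. None of these 4 calls held under the second scaling, where the limma adjusted p was 0.0827 for Gnai2, 0.0659 for Gnai3, 0.0652 for Pcsk1 and 0.0735 for Dpp4. The 3 scaffolds Shank1, Shank2 and Dlg4 were not called under the first scaling, and Shank1 was higher under the second, by 0.66 (limma adjusted p 0.0284). So were the convertase gene Pcsk2, by 0.83 (0.0359), and Arrb2, for an arrestin, by 0.52 (0.0332).

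**Figure D5:**
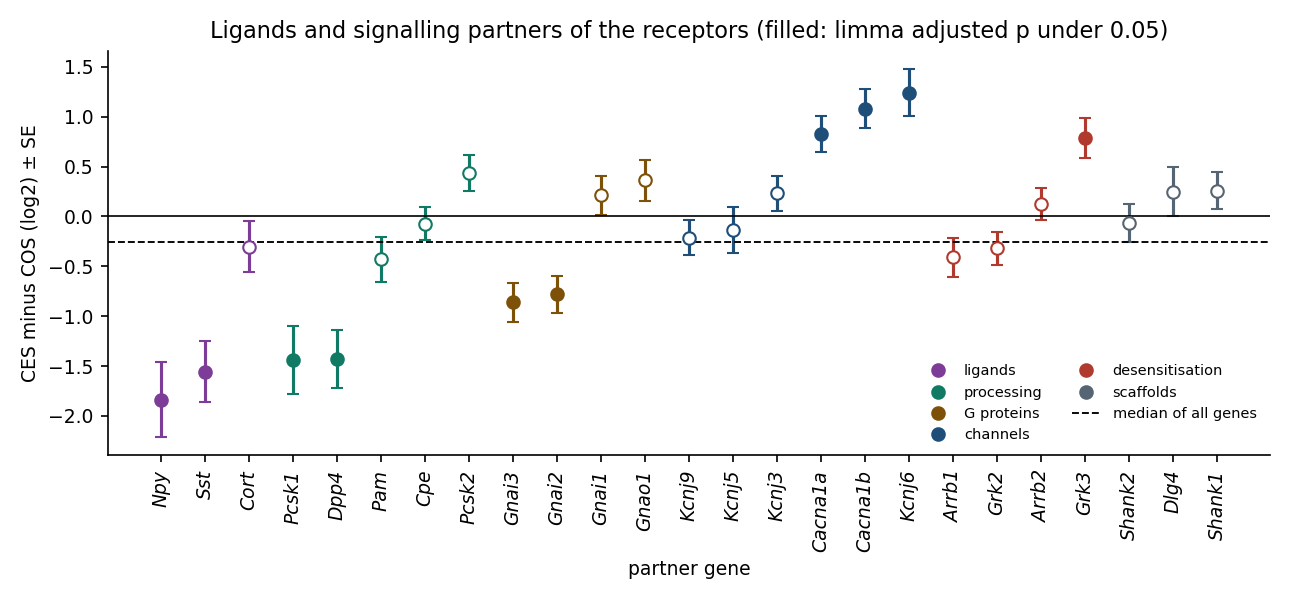
CES minus COS difference ± SE (log2, scaled over each rat's own valid spots) of the 25 quantified ligands and partners, coloured by role and filled where the limma adjusted p was under 0.05. The dashed line is the median of all genes, -0.25; Npy and Sst lie lowest, and Kcnj6, Cacna1b, Cacna1a and Grk3 are the filled points above 0.

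The partner calls leaned on COS replicate 3. Without that rat 2 partners were called higher and 0 lower, and fewer genes were called over the whole array too. Of 24 other receptors for neuropeptides listed, 19 were quantified, and 1 was higher (Ntsr2, by 0.91, limma adjusted p 0.0236) and 4 were lower. The lower ones were Tacr1 (-1.29, 0.0102), Avpr1a (-1.005, 0.016), Crhr2 (-0.74, 0.0173) and Crhr1 (-0.55, 0.0248), against 5.80% of all genes called higher and 28.3% lower. Under the second scaling 0 were called lower and 4 higher, Ntsr2 (1.31), Oprd1 (0.77), Cckbr (0.61) and Oprm1 (0.70, well above background in 2 rats), where 15.7% of all genes were higher.

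Markers of cell types moved with the groups, and their part in the receptor results was not tested. Of 8 markers of CA pyramidal cells, 5 were higher in CES and 0 lower (5.80% and 28.3% of all genes), Pou3f1 by 2.23, Neurod6 by 1.90, Mpped1 by 1.21, Fibcd1 by 0.99 and Wfs1 by 0.98. The summed level of the 8 markers was 6.65 to 7.18 in COS and 6.99 to 7.65 in CES. Of these markers 7 were well above background in all 8 rats, and Fibcd1 in only 2. CES replicate 2 had the lowest sum among CES rats at 6.99. It was also the lowest CES rat for every receptor except Npy2r, for Sstr1 only just. Over the array it was the CES rat nearest to the COS mean for 53.7% of the genes called. Bulk tissue does not tell fewer cells of a type from less RNA per cell.

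The dentate gyrus label was checked against granule cells. Of 5 markers, C1ql2 and Calb1 were well above background in all rats, Dsp in 5 and Prox1 and Tdo2 in 0. C1ql2, Dsp and Tdo2 were lower in CES, with differences of -1.23, -1.24 and -0.57. Over the whole array 28.3% of genes were called lower and 5.80% higher under the first scaling. The same shares apply to the other cell types below. The summed level of the 4 granule cell markers quantified ran from 3.65 to 4.48 in COS and from 3.14 to 3.68 in CES. Markers of interneurons, the class of cells that normally makes NPY and somatostatin, summed to 5.98 to 6.77 in COS and 5.56 to 6.01 in CES, with Vip lower (-1.06) and the other 5 not called. In microglia Csf1r (-0.92) and Itgam (-1.92) were lower, with sums of 4.64 to 5.20 in COS and 3.95 to 4.51 in CES. Of 4 astrocyte markers Aldh1l1 was higher by 1.23. The other 3 were not called, with Gfap at -1.19, Aqp4 at 0.04 and Slc1a2 at 0.31. The astrocyte sums were 6.02 to 6.38 in COS and 5.18 to 6.24 in CES. Of 2 endothelial markers quantified, Flt1 was lower (-1.04) and 1 was not called. No marker of mossy cells, oligodendrocytes or choroid plexus was called under the first scaling. Under the second scaling 9 of the 38 quantified markers were called higher and 0 lower, where 15.7% and 8.05% of all genes were. All 5 pyramidal calls and Aldh1l1 stood, and Calb2 among the mossy cell markers (0.93), Pvalb among the interneuron markers (0.91) and Slc1a2 in astrocytes (0.71) were added.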

How the data were processed

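The authors deposited, per the labels, scanner files of Agilent Feature Extraction 10.7.3.1 with the intensity and local background of each spot in each channel, not normalized between rats, and a table of log2 values that equals log2 of the median signal minus background per channel up to a constant. The processed intensity in the same files is background-corrected and dye-normalized by that software. Groups, replicate numbers and dyes came from the sample records. From the mean intensity minus the background median, each channel was divided by its median over valid spots, gene names were averaged over spots valid in all 8 rats and log2 was taken. COS and CES were compared over all 21332 gene names by limma 3.58.1 in R 4.3.3, with dye fixed and array as a random block (through statmod 1.5.0). Tests were two-sided and called at a Benjamini-Hochberg adjusted p under 0.05. Since every array held rats of 1 group, a random block was the way to carry the array. The fit was tested on simulated data. The receptors, the lists and the tests were chosen with earlier results of these data known. Named genes are all receptors, ligands, list members that limma called and the 2 names nearest to each receptor well above background in all rats. Alternatives covered background correction, normalization, scaling, filters, dye, array and replicate terms, probe choice, names, the methods' t-test, the deposited table and each rat left out. The number of arrays, 4, limits the precision; the median SE was 0.20. Python 3.11.15 with pandas 2.3.3 and matplotlib 3.10.9 drew the figures.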

Additional observations from a re-analysis of the deposited data

Results flagged for a closer look

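In 2 of the 16 groups of 4 rats, 1 rat lay apart from the other 3 by Dixon's ratio, which chance alone gives in about 1 of 20 groups. Npy1r in CES replicate 2 was -0.40, with the other CES rats from 0.74 to 0.96. Sstr1 in CES replicate 3 was 2.41, with the other CES rats from 1.95 to 2.02. The Npy1r difference without CES replicate 2 was 1.20 and the Sstr1 difference without CES replicate 3 was -0.69, both still called.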

How the results depend on the processing

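Directions of Npy1r, Npy2r, Npy5r, Sstr1 and Sstr2 held in all alternatives run, while the calls of Npy2r, Sstr1 and Sstr2 and the signs of Sstr3, Sstr4 and Sstr5, none of these 3 called, depended on the scaling. Npy1r was called under both scalings with no rat left out, and lost its call under each when some single rats were left out. Genes called over the array, 1238 higher and 6038 lower in the reported fit, are given below in that order, as are the partners, 4 and 6. The cause of these changes was not tested, beyond the scaling itself.

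With normexp background correction no receptor was called, Npy1r at 0.60, Npy2r at -0.81 and Sstr1 at -0.41, and Sstr3 turned to 0.090; genes called were 125 and 461, partners 0 and 0. After loess and Aquantile Npy2r (-0.71) and Sstr1 (-0.21) lost their call, Sstr2 (0.87) gained one, and Sstr3, Sstr4 and Sstr5 turned to 0.25, 0.19 and 0.049, with 3244 and 1825 genes and 8 and 1 partners. Quantile normalization gave -0.72, -0.22 and 0.88 for the same first 3 genes and turned Sstr3 and Sstr4 to 0.25 and 0.23, with 3201 and 2151 genes and 8 and 3 partners. The second scaling, over spots valid in all rats, gave -0.71, -0.20 and 0.88, turned Sstr3, Sstr4 and Sstr5 to 0.33, 0.20 and 0.15, and called 3348 and 1718 genes and 8 and 2 partners. The deposited log2 table gave -0.72, -0.18 and 0.83, turned these to 0.25, 0.16 and 0.17, and called 3275 and 1927 genes and 8 and 3 partners.

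Without a filter on valid spots Npy1r (0.96), Npy2r (-1.11) and Sstr1 (-0.60) kept their size and lost their call, with more genes tested, 404 and 2696 called, and 3 partners lower. A foreground of at least 3 times background ended the call of Sstr1 (-0.48), turned Sstr3 to 0.052 and left 2828 genes lower. Keeping spots well above background in all rats left out Sstr5, ended the calls of Npy2r (-0.66) and Sstr1 (-0.15), added Npy5r (0.82) and Sstr2 (0.93), turned Sstr3 and Sstr4 to 0.38 and 0.25, and called 2223 and 880 genes and 3 partners lower. The methods' t-test, with the differences at 0.96, -1.11 and -0.60, called 0 receptors, 0 and 0 genes and 0 and 0 partners after Benjamini-Hochberg, while 6103 genes had an unadjusted p under 0.05, against 9633 in limma. The study itself corrected this test only for redundant spots of a gene and added a fold-change cut-off. Unadjusted, the t-test gave p of 0.0507 for Npy1r, 0.0248 for Npy2r and 0.0146 for Sstr1, and the cut-off was not applied here.

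Within the Cy3 rats Npy1r (1.02), Npy2r (-1.27) and Sstr1 (-0.48) were not called, Sstr4 turned to 0.066, and 517 and 3308 genes and 2 partners higher were called. Within the Cy5 rats the values were 0.90, -0.94 and -0.71, Sstr3 turned to 0.12, and 0 and 2 genes and 0 and 0 partners were called. The processed signal, dropping the array block or dye term, the brightest probe, accession names and dropping marked outliers changed no receptor's call or sign.

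Replicate numbers coincide with the dye: deviations of same-numbered rats correlated by 0.21 to 0.34, and by -0.28 to 0.08 once the dye was removed, so they were not read as pairs. With the replicate block Npy1r stayed at 0.96 (limma adjusted p 0.0171), Npy2r at -1.11 (0.0158) and Sstr1 at -0.60 (0.0302), and the other 5 receptors were not called.

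Leaving out each rat gave 0.70 to 1.20 for Npy1r, -1.31 to -0.85 for Npy2r, 0.17 to 0.59 for Npy5r, -0.72 to -0.49 for Sstr1, 0.28 to 0.65 for Sstr2, called only without CES replicate 2, -0.19 to 0.13 for Sstr3, -0.33 to -0.025 for Sstr4 and -0.39 to -0.17 for Sstr5. Genes called ran from 248 to 1837 higher and from 885 to 7076 lower, partners from 2 to 5 and from 0 to 8. Under the second scaling, an addition made after seeing the data, leaving out each rat gave 1.13 to 1.64 for Npy1r, -0.86 to -0.50 for Npy2r, 0.52 to 1.07 for Npy5r, -0.32 to -0.11 for Sstr1 and 0.71 to 1.08 for Sstr2. It gave 0.23 to 0.48 for Sstr3, 0.053 to 0.36 for Sstr4 and 0.074 to 0.19 for Sstr5. Signal over background limits the Npy1r probe at position 872 and Sstr5, and 4 rats a group limit the rest.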
